A study of Mus musculus with 12 samples.

Results

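Retinoic acid is the active form of vitamin A, and 10 genes that make it, remove it or bind it as receptors were followed in liver sinusoidal endothelial cells (LSEC), the fenestrated endothelium of the liver lobule. The genes are Rdh10, Dhrs3, Lrat, Aldh1a1, Aldh1a2, Cyp26a1, Cyp26b1, Rara, Rarb and Rarg. They were taken by symbol from 25428 probe sets on Affymetrix arrays, where each has 1 probe set named by its Entrez gene, and all 10 were found. They were picked with the comparison of the genotypes already known. Their differences between the genotypes are therefore a description and carry no test.

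RNA came from 6 control samples and 6 samples of NICD-OE-HEC mice, which carry Clec4g-Cre(tg/wt) and the Rosa26-N1ICD-IRES-GFP allele, so that hepatic endothelium in which the Clec4g promoter drives Cre makes the Notch1 intracellular domain. The labels give the control genotype only as Ctrl, and the sources used here do not state age, sex or strain. Every sample pooled livers of 3 mice, and CD146 beads selected the cells after collagenase digestion and a density gradient. The labels call the samples of a group biological replicates, and the p-values measure the spread between these pools.

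Lying above the array median of 3.67 (log2) does not tell cell types apart. By their mean over all arrays, 9 of 9 measured hepatocyte and 7 of 7 Kupffer cell markers lay above it. All 10 listed endothelial genes also lay above it in both groups, which therefore does not check the endothelial label. Of these markers 3 rose and 5 fell (limma, adjusted p under 0.05), from Stab2 at -1.32 and Clec4g at -0.81 to Lyve1 at 0.83 and Mcam at 0.92, while Cdh5 and Tie1 differed by 0.01 and 0.00 without a call. Their summed linear level ran from 19699 to 24337 in control and from 17299 to 20741 in NICD-OE-HEC, and their part in the members' values was not tested. The Notch target gene Hey1 was 4.42 ± 0.38 in control and 7.11 ± 0.23 in NICD-OE-HEC (SD, n = 6 each; limma adjusted p = 4.15e-08), and Nrarp rose by 1.04 on the log2 scale. Notch1 itself differed by 0.19 (SE 0.14) and was not called, a value that does not check the labels, since the stretch of Notch1 that its probe set covers was not examined. Control 2 and NICD-OE-HEC 4 stood apart from the other arrays on the second principal component, at -48.5 and -30.3 against -8.51 to 22.3 for the remaining 10. Of other cell types checked by markers, neutrophils gave 4 rises and 0 falls among 6 (summed linear level 67.4 to 351 in control and 425 to 1535 in NICD-OE-HEC, with Mpo, Camp, Retnlg and Ltf under the array median in control), cholangiocytes 4 and 0 among 4, and Kupffer cells 1 and 0 among 7. Among 5 lymphocyte markers 0 were called by limma, and 0 had an unadjusted p under 0.05. Of these, Cd3d and Ms4a1 lay under the array median by their mean in both groups. Cd3e (3.89 in control and 3.62 in NICD-OE-HEC) and Cd79a (3.84 and 3.78) lay near it, so the lack of calls says little about lymphocytes. The part of these cells in the members' values was not tested. For each member the difference without control 2 and NICD-OE-HEC 4 is given below.

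Cells obtain retinol from the blood or from retinyl esters. Retinol is oxidised to retinaldehyde by retinol dehydrogenases such as Rdh10, and Dhrs3 runs the same step backwards. Retinaldehyde dehydrogenases of the Aldh1a group then make retinoic acid, which cannot be turned back, and Cyp26 enzymes of the cytochrome P450 family oxidise it to inactive products. In the nucleus retinoic acid binds the receptors RAR alpha, beta and gamma (Rara, Rarb, Rarg), which sit on DNA as pairs with retinoid X receptors. Several genes of the pathway, Cyp26a1, Dhrs3 and Rarb among them, are textbook targets of these receptors. In the liver, most vitamin A is stored as retinyl ester in the stellate cells that lie beside the sinusoidal endothelium.

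In NICD-OE-HEC cells, 4 of the 10 genes lay lower with no overlap between the groups: the retinoic acid hydroxylase Cyp26b1, the retinaldehyde reductase Dhrs3 and the receptors Rarb and Rarg. Their log2 differences ran from -2.08 to -0.99. The esterifying enzyme Lrat was also lower, by -0.75, with overlap. Aldh1a2 was the only member that lay higher without overlap, at levels near the bottom of the scale, while Rara, Rdh10, Cyp26a1 and Aldh1a1 overlapped between the groups. Over all probe sets, 3.7% were lower and 2.98% higher without overlap, 6.68% together, and since the members were chosen on this contrast nothing is read from their share. In bulk RNA of this kind, fewer cells expressing a gene and less RNA per cell cannot be told apart.

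**Figure D1:**
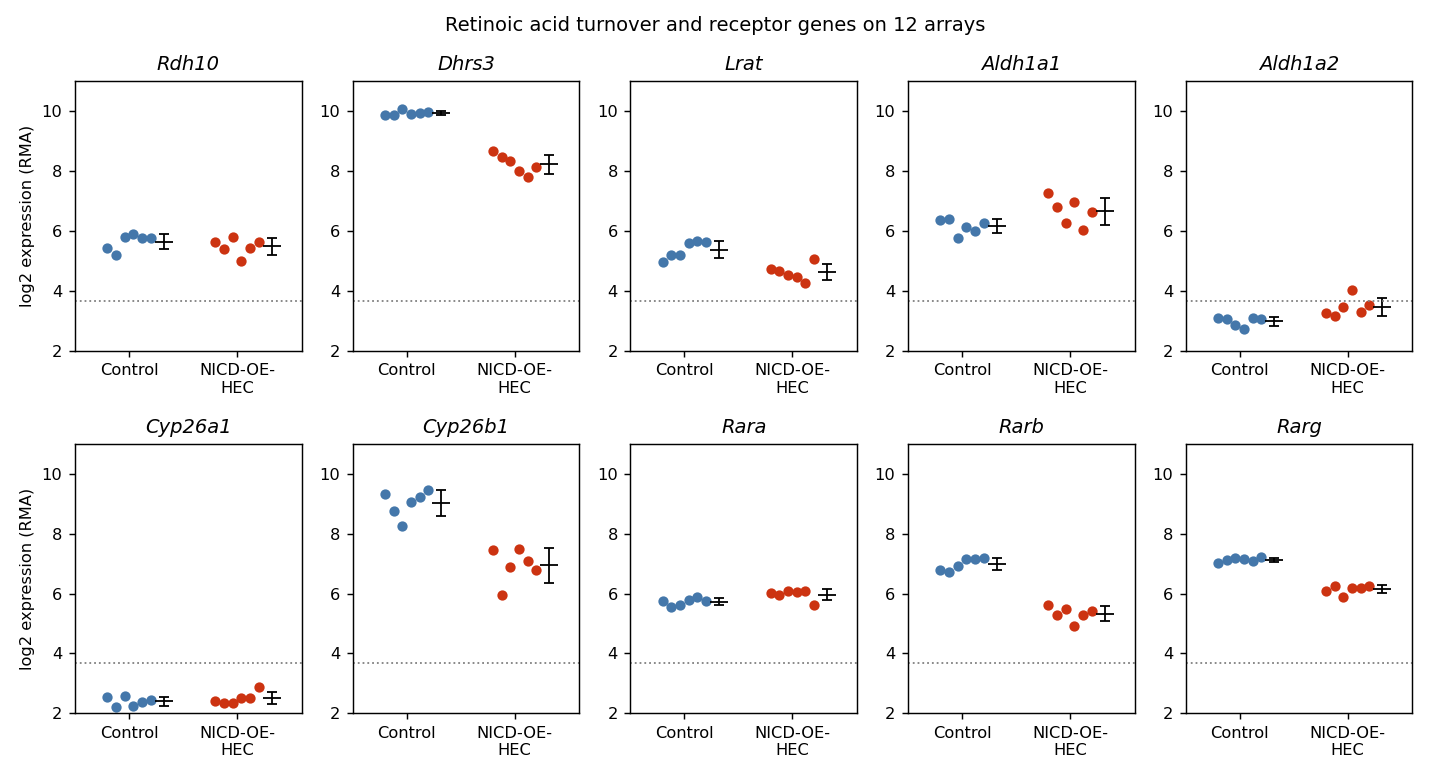
Log2 expression of the 10 genes on each of 12 arrays (points, blue for Control and red for NICD-OE-HEC), with the mean and SD of the 6 arrays of a group at the right of its points and the array median of 3.67 as a dotted line. Dhrs3, Cyp26b1, Rarb and Rarg show no overlap between the groups, the groups overlap for Rara and Rdh10, and Cyp26a1 lies under the dotted line on every array.

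The enzymes that interconvert retinol and retinaldehyde gave unlike values. Dhrs3 returns retinaldehyde to retinol and so limits the supply for retinoic acid synthesis. It measured 9.85 at the lowest, 9.92 at the median and 10.08 at the highest in control, against 7.79, 8.23 and 8.67 in NICD-OE-HEC. The lowest control array was thus 1.19 above the highest NICD-OE-HEC array, the widest gap between groups of any member. The mean was 9.93 ± 0.08 in control and 8.23 ± 0.32 in NICD-OE-HEC (SD, n = 6 each), a log2 difference of -1.71 (SE 0.13) or 3.27-fold on the linear scale. Its spread was 3.93 times as large among NICD-OE-HEC arrays as among controls, a difference of spread that was not tested. The difference was -1.67 without control 2 and NICD-OE-HEC 4.

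Rdh10, the dehydrogenase that works in the opposite direction, spanned 5.21 to 5.90 in control with a median of 5.76. In NICD-OE-HEC it spanned 5.00 to 5.81 with a median of 5.54. The ranges lay almost on top of each other, and 1 NICD-OE-HEC array, number 4, fell under the lowest control. The log2 difference was -0.16 (SE 0.15), and it was -0.06 without NICD-OE-HEC 4, -0.24 without control 2 and -0.15 without both.

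Lrat links retinol to a fatty acid for storage and is best known from stellate cells. It measured 4.98, 5.39 and 5.67 at the lowest, median and highest control arrays and 4.26, 4.60 and 5.06 in NICD-OE-HEC. Of the 6 NICD-OE-HEC arrays, 5 lay under the lowest control, and NICD-OE-HEC 6 was the exception at 5.06. The mean was 5.37 ± 0.29 in control and 4.62 ± 0.27 in NICD-OE-HEC (SD, n = 6 each), a log2 difference of -0.75 (SE 0.15), and -0.76 without control 2 and NICD-OE-HEC 4. In the list of 14 stellate cell and fibroblast genes 4 rose and 1 fell (limma, adjusted p under 0.05), with a median difference of 0.21. The collagen gene Col1a1 rose by 2.49, the receptor gene Vipr1 fell by 0.42 and the stellate cell gene Reln differed by -0.59 (SE 0.31) without a call. The summed linear level of that list ran from 476 to 1308 in control and from 1025 to 1412 in NICD-OE-HEC, with Gfap under the array median, and its part in the Lrat difference was not tested.

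Among the members, the 2 dehydrogenases that make retinoic acid were measured at or above the control level in most NICD-OE-HEC arrays. Of these, Aldh1a2 lay mostly under the array median. Aldh1a3, of the same group but not a member, measured 2.55 ± 0.13 in control and 2.63 ± 0.12 in NICD-OE-HEC (SD, n = 6 each). It lay under the array median and was not called. Nothing is therefore read for the synthesis step as a whole. Aldh1a1, which is also abundant in hepatocytes, measured 5.77, 6.20 and 6.38 at the lowest, median and highest control arrays and 6.03, 6.71 and 7.25 in NICD-OE-HEC. On 4 of the 6 NICD-OE-HEC arrays it was above every control, and NICD-OE-HEC 3 and 5 lay within the control range. The log2 difference was 0.50 (SE 0.18), and 0.49 without control 2 and NICD-OE-HEC 4. Among 9 measured hepatocyte markers 3 rose and 0 fell. The rises were Albumin (Alb) by 1.13, Apoa1 by 0.86 and Ttr by 0.89, and the Ttr call was lost without certain single arrays, as given below. Cyp2e1 had the only negative difference, -0.33, and was not called. The summed linear level of these markers ran from 1103 to 2288 in control and from 1850 to 4560 in NICD-OE-HEC. NICD-OE-HEC 1 was highest both in that sum and in Aldh1a1. Among NICD-OE-HEC arrays it was also highest in the endothelial, Kupffer, neutrophil and lymphocyte sums. Among controls, control 1 was highest in the hepatocyte sum but control 2 in Aldh1a1 (6.38, against 6.35 on control 1). None of the hepatocyte markers was under the array median, and their part in the Aldh1a1 values was not tested.

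Aldh1a2, the main enzyme of embryonic retinoic acid synthesis, spanned 2.71 to 3.08 in control with a median of 3.06. In NICD-OE-HEC it spanned 3.17 to 4.01 with a median of 3.38. The groups did not overlap, but the gap was only 0.08, and 11 of the 12 arrays lay under the array median, a range in which signal and background are not distinguished. The log2 difference was 0.48 (SE 0.13), and 0.38 without control 2 and NICD-OE-HEC 4, the latter being the array with 4.01. Mesothelial cells, which are known to express Aldh1a2, were represented by 6 markers, of which 2 rose (Gpm6a and Krt19) and 0 fell. Their summed level ran from 211 to 270.0 in control and from 437 to 611 in NICD-OE-HEC. Gpm6a, the brightest of them, rose from a mean of 6.98 to 8.62 and dominated that sum. Msln, Upk3b, Wt1 and Upk1b differed by 0.03, -0.03, 0.14 and -0.01 and were not called. Krt19, also a listed cholangiocyte marker, was under the array median by its mean in control (3.55). The part of mesothelial cells was not tested. Markers of dendritic cells, some of which also express Aldh1a2, gave 1 rise and 2 falls among 7. Cd209a rose from 3.43 to 5.66, while Zbtb46 fell from 6.83 to 5.85 and Clec9a from 4.68 to 3.77. Flt3, Xcr1 and Ccr7 lay under the array median by their mean over 12 arrays, and Cd209a and Itgax by their mean in control. The part of dendritic cells was not tested.

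Of the enzymes that clear retinoic acid, Cyp26b1 carried the largest difference among the 10 genes. It measured 8.26, 9.15 and 9.45 at the lowest, median and highest control arrays and 5.94, 6.99 and 7.47 in NICD-OE-HEC. Control 3 was the lowest control at 8.26 and NICD-OE-HEC 2 the lowest of all at 5.94, yet the groups stayed 0.78 apart. The mean was 9.02 ± 0.44 in control and 6.94 ± 0.57 in NICD-OE-HEC (SD, n = 6 each). The log2 difference was -2.08 (SE 0.25), 4.23-fold on the linear scale. It was -2.24 without control 2 and NICD-OE-HEC 4, and it ran from -2.23 to -1.88 over single arrays left out. The 10 listed endothelial markers moved in both directions on the same arrays, and their part in the Cyp26b1 difference was not tested.

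Cyp26a1, the paralogue that retinoic acid induces most readily in many tissues, lay under the array median on all 12 arrays. Its control range was 2.23 to 2.59 and its NICD-OE-HEC range 2.34 to 2.88. The difference of 0.10 (SE 0.11), 0.03 without NICD-OE-HEC 6 and 0.06 without control 2 and NICD-OE-HEC 4, is between values in the range of background. The third family member, Cyp26c1, was likewise under the median, at 2.29 ± 0.23 in control and 2.59 ± 0.10 in NICD-OE-HEC (SD, n = 6 each), and was not called.

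The 3 receptors differed in direction and size. Rarb measured 6.72, 7.03 and 7.18 at the lowest, median and highest control arrays and 4.91, 5.36 and 5.61 in NICD-OE-HEC. The groups lay 1.10 apart. Its mean was 6.99 ± 0.20 in control and 5.33 ± 0.24 in NICD-OE-HEC (SD, n = 6 each), a log2 difference of -1.65 (SE 0.13) or 3.15-fold, and -1.62 without control 2 and NICD-OE-HEC 4.

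Rarg, the gamma receptor, was the least variable member in control, spanning 7.01 to 7.21 with a median of 7.14. In NICD-OE-HEC it spanned 5.90 to 6.26 with a median of 6.19. The groups were 0.75 apart, and the log2 difference was -0.99 (SE 0.08), 1.98-fold, or -1.001 without control 2 and NICD-OE-HEC 4.

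Rara, the alpha receptor, spanned 5.56 to 5.90 in control with a median of 5.76 and 5.63 to 6.07 in NICD-OE-HEC with a median of 6.04. Here 5 of the 6 NICD-OE-HEC arrays were above every control, and NICD-OE-HEC 6, at 5.63, lay within the control range. The log2 difference was 0.23 (SE 0.10), and 0.18 without control 2 and NICD-OE-HEC 4. Its difference thus had the opposite sign to those of Rarb and Rarg, though its groups overlapped. Receptor isoforms are not distinguished here, since each gene has 1 probe set.

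The promoters of these genes are shown because retinoic acid receptors are known to act on some of them. RefSeq promoter windows of GRCm38.p6, from 250 bases before to 50 after an annotated start, were at hand for 9 of the 10 genes, 16 windows in all, and none was used for Rdh10. Both strands were searched for the receptor hexamer, taken as AGGTCA (the consensus) or its usual variants AGTTCA (which occurs in Rarb and Cyp26a1), GGTTCA (which occurs in Rarb) and GGGTCA (also in Rarb), and for 2 hexamers in the same orientation 5 bases apart, the arrangement called DR5. Each DR5 match also contains 2 single hexamer matches. A DR5 pair was found in 2 genes, Rarb and Cyp26a1, and 0.0974% of all 32851 windows hold one. Both pairs are textbook elements that were known when the search was set up, so that share is background and nothing is read from it. Single hexamers were found in 6 of the 16 windows, against 43.7% of all windows, and in 5 of the 9 genes, against 46.9% of all genes with a window. Pairs with spacers of 2 and 1 bases (DR2 and DR1), held by 0.268% and 0.222% of windows, were found in 0 of the 9 genes.

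The 2 DR5 pairs are given with both hexamers reading forward and in capitals and the spacer in lower case. The Rarb pair lies at chr14:16575513-16575529 on the strand of the gene, from -53 to -37 counted from the start. The Cyp26a1 pair lies at chr19:37697776-37697792 on the strand opposite to the gene, from -32 to -16. They share 15 of 17 bases, and 11 of the 12 hexamer bases.
Rarb DR5: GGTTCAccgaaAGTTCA
Cyp26a1 DR5: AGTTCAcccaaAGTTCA

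The 250 bases before the start follow in the gene's own direction, with hexamers in capitals. Rarb (chr14:16575477-16575726, minus strand) and Cyp26a1 (chr19:37697558-37697807, plus strand) hold the DR5 pairs. Rarg (chr15:102257523-102257772, minus strand) holds a single reverse hexamer, and Cyp26b1 (chr6:84593811-84594060, minus strand) holds none. Rarg has another window, at chr15:102246451-102246750, which holds no hexamer and is not printed.
Rarb: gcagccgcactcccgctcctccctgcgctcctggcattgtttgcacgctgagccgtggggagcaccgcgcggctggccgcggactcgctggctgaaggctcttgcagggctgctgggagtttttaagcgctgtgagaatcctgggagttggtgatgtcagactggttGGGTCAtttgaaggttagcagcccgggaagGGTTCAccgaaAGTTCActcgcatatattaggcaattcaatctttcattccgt
Cyp26a1: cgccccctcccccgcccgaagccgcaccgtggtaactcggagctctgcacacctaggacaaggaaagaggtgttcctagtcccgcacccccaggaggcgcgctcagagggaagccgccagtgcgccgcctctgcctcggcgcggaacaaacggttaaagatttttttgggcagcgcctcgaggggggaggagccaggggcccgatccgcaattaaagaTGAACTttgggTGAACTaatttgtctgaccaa
Rarg: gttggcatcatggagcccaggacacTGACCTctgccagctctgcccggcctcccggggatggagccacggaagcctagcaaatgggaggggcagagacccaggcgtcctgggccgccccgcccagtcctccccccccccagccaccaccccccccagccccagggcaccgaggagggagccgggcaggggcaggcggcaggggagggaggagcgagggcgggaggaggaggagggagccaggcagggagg
Cyp26b1: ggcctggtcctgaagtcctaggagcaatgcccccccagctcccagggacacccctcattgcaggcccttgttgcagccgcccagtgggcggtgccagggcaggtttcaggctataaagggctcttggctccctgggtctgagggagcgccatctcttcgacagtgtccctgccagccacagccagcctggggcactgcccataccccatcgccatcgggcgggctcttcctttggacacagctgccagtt

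The 2 genes with nearly the same DR5 pair beside their start gave different readouts in these cells. Rarb was well above the array median in control and 3.15-fold lower in NICD-OE-HEC, whereas Cyp26a1 stayed under the array median in both groups. Cyp26b1 and Dhrs3 hold no hexamer in any of their 4 windows, and Lrat and Aldh1a2 hold none either. The windows of Dhrs3 overlap each other. Sequence outside the windows was not searched, so nothing is read from the lack of a match. The letters GTGGGAA, a match for the Notch partner RBPJ, occurred in 6.38% of all windows and among the members only in Rara, in a pair of overlapping windows. The E-box CACGTG, which HEY repressors can bind, occurred in 7.15% of windows and again only in Rara. A match here is a description of the letters and not a measured site. Of 29 further genes with a DR5 pair in a window, 13 were measured, of which 1 rose and 1 fell, against 10.5% of all probe sets called. The platelet chemokine gene Ppbp rose by 1.01 and the biliverdin reductase gene Blvrb fell by 0.54.

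**Figure D2:**
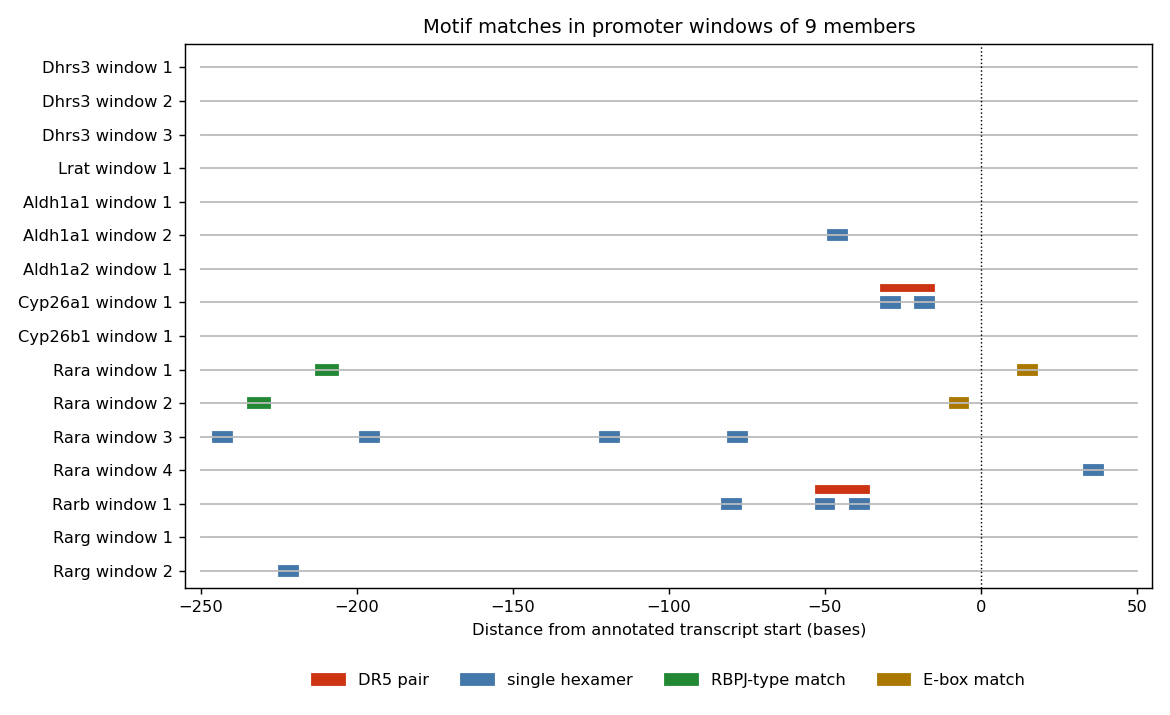
Motif matches in the 16 promoter windows of 9 genes, plotted by distance in bases from the annotated start (dotted line). Red bars mark DR5 pairs, which occur in Cyp26a1 and Rarb, blue bars single hexamers, green bars GTGGGAA and ochre bars CACGTG.

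Most other genes of retinoid handling did not pass the test. Of 59 listed, 56 were measured; 6 rose and 2 fell, together 8 genes, and their median difference was 0.03 against -0.01 over all probe sets. Among all 25428 probe sets 10.5% were called, 4.89% higher and 5.59% lower (limma, adjusted p under 0.05). Of the 56 genes, 25 lay under the array median.

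Among 11 measured genes of uptake and binding, 2 rose and 0 fell. Fabp5, which carries fatty acids and can deliver retinoic acid to the nuclear receptor PPAR delta, rose from 5.28 ± 0.16 to 6.46 ± 0.37 (SD, n = 6 each; limma adjusted p = 7.69e-05). Ttr, the plasma partner of retinol-binding protein and a hepatocyte gene, rose by 0.89 (SE 0.26, limma adjusted p = 0.0441). Its call was lost without control 3, 4, 5 or 6 or NICD-OE-HEC 1, 2, 3, 4 or 6, where the difference ran from 0.76 to 0.94 and the adjusted p reached 0.107. The retinol receptor Stra6 and the retinoic acid binders Crabp1 and Crabp2 lay under the array median.

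Of 22 genes of oxidation and reduction, 1 rose and 0 fell. Adh1, an alcohol dehydrogenase that can oxidise retinol and is abundant in hepatocytes, rose from 7.31 ± 0.44 to 8.51 ± 0.51 (SD, n = 6 each; limma adjusted p = 0.00313). Its groups overlapped because control 1 reached 8.16. That array also had the highest hepatocyte, Kupffer and neutrophil marker sums among controls. The part of hepatocyte RNA in the Adh1 and Ttr values was not tested. In the group of ester handling and clearance 3 of 10 rose and 0 fell. The lipase genes Pnpla2 and Lpl rose by 0.52 and 1.00, and Cyp1b1, a cytochrome P450 that can also oxidise retinol, rose by 1.01 (SE 0.21, limma adjusted p = 0.00562).

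Of 13 measured receptor partners, 0 rose and 2 fell. Ncoa3, a coactivator of nuclear receptors, fell from 9.14 ± 0.13 to 7.95 ± 0.17 (SD, n = 6 each; log2 difference -1.20, SE 0.10, limma adjusted p = 9.96e-07). Nrip1, a corepressor that retinoic acid can induce, fell by 0.58 (SE 0.10, limma adjusted p = 0.00106). Both genes had no overlap between the groups. The retinoid X receptor gene Rxra, at 7.85 ± 0.26 in control and 7.51 ± 0.24 in NICD-OE-HEC (SD, n = 6 each), was not called (limma adjusted p = 0.147).

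**Figure D3:**
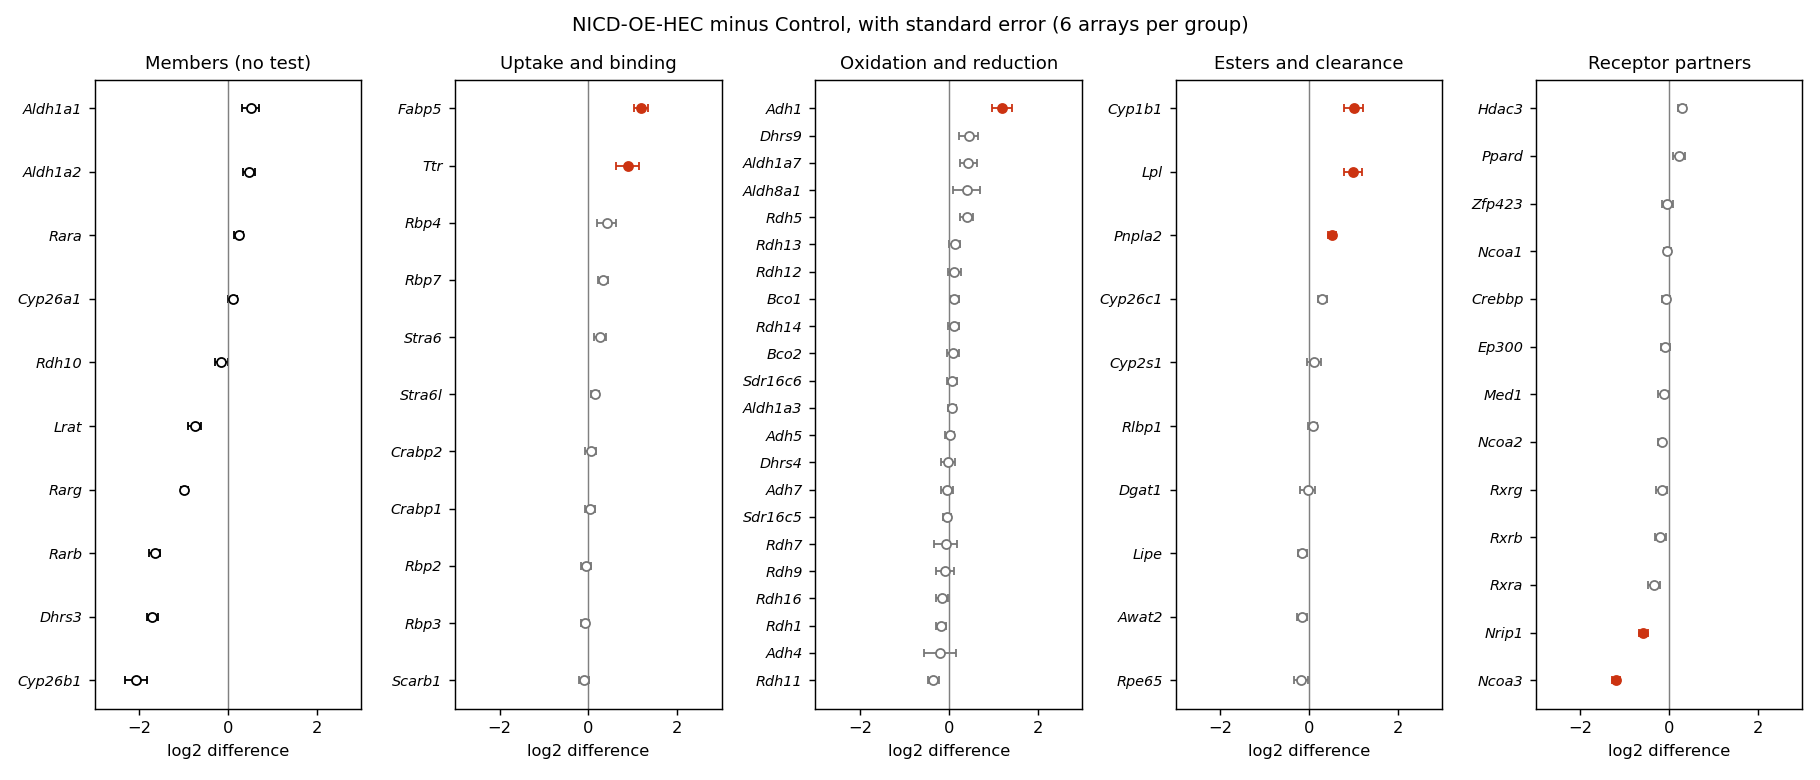
Log2 difference NICD-OE-HEC minus Control with its standard error for the 10 members, which carry no test, and for 56 other retinoid genes by role, with 6 arrays per group. Filled red points passed limma's adjusted p under 0.05: 6 lie to the right of 0 and 2, Ncoa3 and Nrip1, to the left.

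Textbook target genes of retinoic acid outside the 10 members moved in both directions. Of 29 listed, 26 were measured; 1 rose and 4 fell, against 4.89% of all probe sets higher and 5.59% lower, with a median difference of 0.01. Meis2, a homeobox factor, fell by 0.46 (SE 0.09, limma adjusted p = 0.00293), Nrip1 fell as given above, and Ets1, an endothelial transcription factor, fell by 0.31 (SE 0.08, limma adjusted p = 0.0182). Hoxb1 fell by 0.34 (limma adjusted p = 0.0308), but its group means of 3.54 and 3.20 lay under the array median, and the call was lost without control 4 or 5 or NICD-OE-HEC 2, 4 or 6 (-0.37 to -0.29 over single arrays left out). Egr1 was the gene that rose, by 2.23 (SE 0.36, limma adjusted p = 6.08e-04). It also belongs to 9 early-response genes, a class that tissue digestion is known to induce, and 7 of them rose and 0 fell. Their summed linear level ran from 1462 to 4228 in control and from 3582 to 10200.3 in NICD-OE-HEC, and their part in the Egr1 rise was not tested. Without control 2, 8 target genes were called, 3 higher and 5 lower. Without both control 2 and NICD-OE-HEC 4 the split was 3 higher and 2 lower. Ets1 and Hoxb1 lost their calls there, and also with the replicate number as a block.

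**Figure D4:**
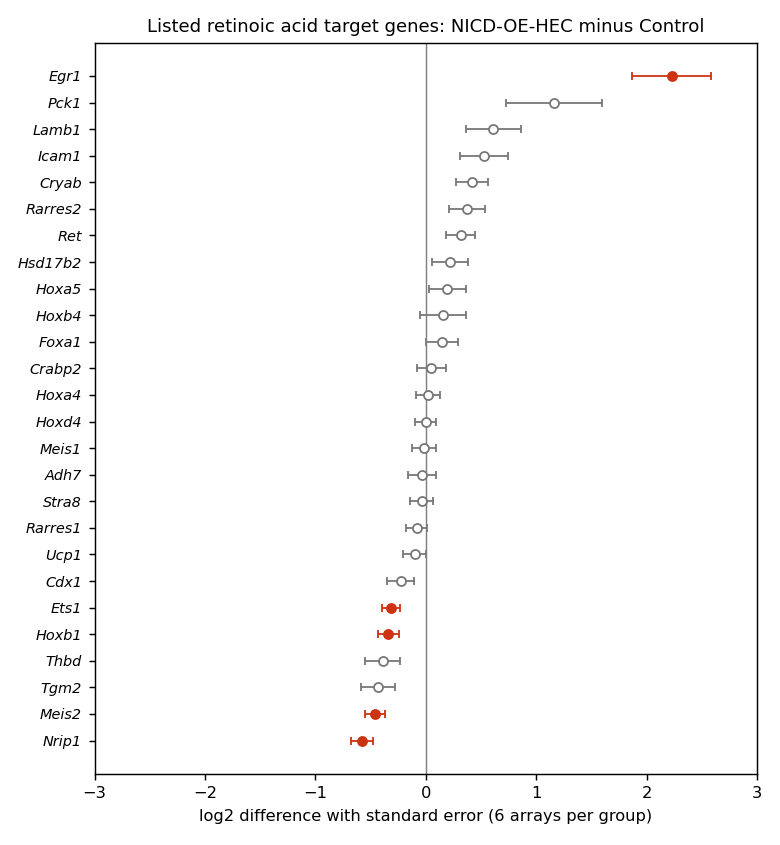
Log2 difference NICD-OE-HEC minus Control with its standard error for 26 measured target genes of retinoic acid that are not members, with 6 arrays per group. Filled red points passed limma's adjusted p under 0.05: Egr1 at 2.23, and Nrip1, Meis2, Hoxb1 and Ets1 between -0.58 and -0.31.

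The variation within groups, which does not use the difference between genotypes, was compared between genes. Each value was set against its group mean. The candidates were 11512 probe sets above the array median that had a gene symbol, without those named Gm and a number, Rik or LOC. For each of the 8 members above that median, the 3 closest candidates were taken by Pearson's r over 12 arrays. Because each was picked as the highest of many, no p is given. Cyp26b1 was closest to Tex14 (r = 0.91, Spearman's rho = 0.84), Sh3bgrl2 and Samd1. Dhrs3 was closest to H2-D1 (r = 0.94, rho = 0.73), Ighj4 and Car8. For these 3 its r was 0.78, 0.59 and 0.27 within control, against 0.97, 0.93 and 0.99 within NICD-OE-HEC. Rarb was closest to Fam120a (r = 0.92, rho = 0.91), Scaf8 and Rabl2, and Rarg to Hat1 (r = 0.93, rho = 0.82), Slc25a4 and Tcaf2.

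Rara was closest to Arid1b (r = 0.92, rho = 0.95), Dhx33 and Cdr2l. Rdh10 was closest to Mmrn2 (r = 0.93, rho = 0.85), Scaf8 and Tmem126b, so that Scaf8 stood near both Rdh10 and Rarb. Lrat was closest to Colec10 (r = 0.92, rho = 0.90), Gpr89 and Ddah1. Aldh1a1 was closest to Rida (r = 0.94, rho = 0.94), Sec14l2 and Phf11b. Without the 2 arrays farthest from the member's median, the r of the closest gene was 0.76 for Cyp26b1, 0.80 for Dhrs3, 0.85 for Rarb, 0.73 for Rarg, 0.91 for Rara, 0.90 for Rdh10, 0.86 for Lrat and 0.85 for Aldh1a1. The points share their arrays, their cell preparation and one normalization. No member was among the 3 closest genes of another member.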

How the data were processed

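Total RNA of 12 LSEC pools was hybridised to 1 Affymetrix array each. The deposited values are log2 expression values that the authors made with RMA, per the submitters' processing notes; the software, chip definition and build behind it are not stated there. The arrays share their quantiles (median 3.67), so a shift of most genes would not show, and no detection calls were at hand. The platform annotation named 24705 of 25428 probe sets, and all 10 members matched RefSeq's GRCm38.p6 table by gene ID.

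Differences (NICD-OE-HEC minus Control) came from limma 3.58.1 in R 4.3.3 (lmFit, eBayes, no covariates), two-sided, with Benjamini-Hochberg adjustment over all probe sets, a call being an adjusted p under 0.05. The fit was tested on simulated data. The members, lists and alternatives were chosen with earlier results of these data known. Named were the members, up to 6 called genes per list by size, 3 label checks and the 3 closest genes per member; other genes, among them Ppbp, Blvrb and those from marker lists, were named after their values were seen. A few listed genes were not analysed here. Promoter windows were searched with the stated letters, a step chosen after seeing the data. Alternatives were centring, a further quantile normalization, arrays left out, filters on dim probe sets, replicate number as a block, weights for arrays, robust eBayes with an intensity trend, and a log2 difference of at least 1.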

Additional observations from a re-analysis of the deposited data

Results flagged for a closer look

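In 50 groups of 6 arrays (25 named genes), 5 held an array far from the rest by Dixon's test at the 95% level, and chance flags about 1 in 20 groups. Among the members, Cyp26a1 was 2.88 on NICD-OE-HEC 6 against 2.34 to 2.52 on the other NICD-OE-HEC arrays, all under the array median. Rara was 5.63 on the same array against 5.94 to 6.07 on the others. Control 1 stood out for Adh1, at 8.16 against 6.97 to 7.34. Control 2 stood out for Cyp1b1, at 4.82 against 5.42 to 5.78, and for Ets1, at 9.67 against 9.47 to 9.55.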

How the results depend on the processing

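All 198 recomputed differences of the 10 members stayed within 1 SD of the reported value and 0 changed sign. Leaving out 1 array of a group, or control 2 with NICD-OE-HEC 4, cannot move a difference by 1 SD. Most other alternatives scarcely change it by construction, so nothing is read from this count. Over single arrays left out, Cyp26b1 ran from -2.23 to -1.88, Dhrs3 from -1.80 to -1.62, Rarb from -1.71 to -1.57, Rarg from -1.01 to -0.94 and Lrat from -0.84 to -0.68. The number of called probe sets ran from 2107 to 2970 over single arrays left out, that of the other retinoid genes from 7 to 9 and that of the target genes from 4 to 8. With an absolute log2 difference of at least 1 as well, these counts were 531, 4 and 1, fewer by construction. Of 314 recomputed differences of the 15 other named genes, 287 kept their side of the threshold, 27 lost a call and 0 reversed. Same-numbered arrays of the groups correlated at -0.13 to 0.31 in their deviations, over 0.1 in 3 of 6 pairs. Arrays of unlike number correlated at -0.01 on average, and 3 of 6 controls were closest to their own number. The labels do not say that the numbers mark pairs, so the main fit did not use them. With the replicate number as a block 2507 probe sets were called, 8 other retinoid genes and 5 target genes (2 higher and 3 lower), where Ets1 and Hoxb1 had limma adjusted p = 0.0674 and 0.0568. The block lowered the SE of Ttr from 0.26 to 0.13 and that of Egr1 from 0.36 to 0.18. It raised the SE of Ncoa3, Ets1 and Hoxb1. Array weights called 3318 probe sets. No detection calls were at hand, and 6 arrays per group limit the precision.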
